A study of Mus musculus with 16 samples.

Results

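Binding sites of the homeodomain proteins Meis1 and Hoxb13 were compared in the hearts of vehicle-treated young mice. Chromatin immunoprecipitation with sequencing (ChIP-seq), which recovers the DNA bound by a chosen protein, had been run on ventricles at postnatal day 15. The 4 libraries used were the 2 Meis1 and the 2 Hoxb13 libraries of vehicle mice, out of 16 samples in the series, of which 8 have a peak list. The vehicle was PBS, injected daily from postnatal day 7 for 7 days, and no strain is named in the sources used here. The remaining lists come from mice given paromomycin and neomycin (Paro/Neo) at 150 mg/kg 2 times a day over the same days. The Meis1 antibody is described as one against Meis1/2, so its peaks may include sites of Meis2. Peaks of the 2 lists of an antibody that shared at least 1 bp were merged, and a region was kept when both lists held a peak in it. This gave 2928 regions, against 21202 when all 8 lists of the series are merged: 1982 held by Meis1 only, 895 held by Hoxb13 only and 51 held by both.

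Meis1 belongs to the TALE class of homeodomain proteins, which bind DNA together with Pbx and Hox proteins. Its preferred core is the hexamer TGACAG. Hoxb13 is a posterior Hox protein that prefers CAATAAA and TCGTAAA. Both proteins have been studied in the mouse heart as factors that act together in the postnatal withdrawal of cardiomyocytes from the cell cycle, which is the background to a comparison of where each was found.

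Limits of the design touch every value given here. The Meis1 and Hoxb13 samples carry different styles of title and have their own inputs, so the antibody and the sample set cannot be told apart. Ventricles of 2 hearts were used for each sample, described as duplicates, which does not settle whether a library holds 1 heart or a pool. A p-value over libraries therefore measures only the spread between these libraries. Ventricles also hold many cell types, and fewer cells of a type cannot be told apart from less binding per cell. The deposited names of the second-replicate Meis1 lists bear the letter of the opposite treatment group. The labels were followed, and each class count was also computed with those lists exchanged.

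The DNA at several of these regions is shown first, since one hexamer was far more frequent under Meis1 regions than under Hoxb13 regions at starts of genes. The lines below give 22 bases around examples of TGACAG at starts of genes of contraction, energy use and calcium entry. They are read 5′ to 3′ on the strand that carries TGACAG in this direction, and capitals mark that hexamer. Sequences and positions are from RefSeq, build GRCm38.p6, and its positions are those of mm10. The first 5 lay under regions held by Meis1 only and the last 2 under a region held by both antibodies, taken as the union of the 2. The Myh6 hexamers lie in the Hoxb13 part of that union, just outside the shorter Meis1 region.
Pfkl, chr10:78009821-78009842, strand +: cgtttgacTGACAGgctcgggg
Ttn, chr2:76982582-76982603, strand +: agatctgcTGACAGcccaacat
Cacna1c, chr6:119196549-119196570, strand -: tgacgaacTGACAGgctgacag
Cacna1c, chr6:119196541-119196562, strand -: tgacaggcTGACAGaagccatt
Cox7a1, chr7:30184021-30184042, strand -: gaccccaaTGACAGtggctcag
Myh6, chr14:54966707-54966728, strand +: tctggaggTGACAGgaggacag
Myh6, chr14:54966568-54966589, strand +: tctctgtcTGACAGctctcagt

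Pfkl encodes the liver-type subunit of phosphofructokinase, Ttn the giant spring protein titin, Cacna1c the pore of the L-type calcium channel and Cox7a1 a heart and muscle subunit of cytochrome oxidase. Myh6 encodes the fast cardiac myosin heavy chain. The 2 Cacna1c windows overlap, and each carries the hexamer of the other.

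Whole stretches of 250 bases before the start are printed as examples, and they do not by themselves show a contrast between the classes. They are from the listed starts of a gene held by Meis1 only at its start (Cacna1c), a gene held by both (Myh6) and 2 genes whose bodies Hoxb13 regions covered (Actc1, held by Hoxb13 only, and Dusp1, in a shared region). Each is read on the strand of the gene, and capitals mark TGACAG, or CTGTCA where the opposite strand holds it.
Cacna1c, chr6:119196410-119196659, strand -: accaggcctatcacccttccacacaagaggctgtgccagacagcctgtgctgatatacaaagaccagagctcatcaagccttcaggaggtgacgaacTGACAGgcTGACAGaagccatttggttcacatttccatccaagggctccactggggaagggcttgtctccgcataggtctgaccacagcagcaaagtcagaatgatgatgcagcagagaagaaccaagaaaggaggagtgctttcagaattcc
Myh6, chr14:54966608-54966857, strand -: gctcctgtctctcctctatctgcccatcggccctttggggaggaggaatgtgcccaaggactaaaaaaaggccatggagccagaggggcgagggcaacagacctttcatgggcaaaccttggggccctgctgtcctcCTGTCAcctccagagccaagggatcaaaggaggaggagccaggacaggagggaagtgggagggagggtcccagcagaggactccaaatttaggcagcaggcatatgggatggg
Dusp1, chr17:26508473-26508722, strand -: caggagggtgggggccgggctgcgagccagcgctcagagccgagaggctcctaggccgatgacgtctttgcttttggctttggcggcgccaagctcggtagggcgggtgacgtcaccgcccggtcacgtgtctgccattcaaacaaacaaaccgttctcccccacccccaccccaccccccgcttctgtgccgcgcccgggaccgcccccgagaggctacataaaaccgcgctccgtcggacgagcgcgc
Actc1, chr2:114052876-114053125, strand -: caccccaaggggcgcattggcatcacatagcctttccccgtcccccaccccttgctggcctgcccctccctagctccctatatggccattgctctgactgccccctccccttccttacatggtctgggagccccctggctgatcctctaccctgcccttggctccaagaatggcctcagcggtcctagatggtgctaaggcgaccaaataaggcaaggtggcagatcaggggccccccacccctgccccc

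The Cacna1c stretch holds the hexamer 2 times and the Myh6 stretch 1 time. The Dusp1 and Actc1 stretches hold it 0 times, and the Actc1 stretch lies next to its region rather than under it. Not every start held by Meis1 has the hexamer: the same stretch at Cacnb2, a gene of the same calcium channel, holds it 0 times. Actc1 encodes cardiac actin, and Dusp1 a phosphatase that switches off stress-activated kinases.

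Hoxb13 peaks were wider and closer to genes than Meis1 peaks in both libraries. The Meis1 lists held 3529 and 3176 peaks and the Hoxb13 lists 5202 and 1121, so the second Hoxb13 list is the shortest. Median peak width was 255 and 260 bp for Meis1 and 412 and 394 bp for Hoxb13. Peaks no more than 1 kb from one of the ends of a gene coding for protein made up 10.5% and 11.2% of the Meis1 lists and 65.9% and 63.8% of the Hoxb13 lists. Each antibody's replicates lay close together and far from those of the other antibody. Peaks over 50 kb from any gene made up 21.6% and 20.3% of the Meis1 lists but 3.40% and 4.28% of the Hoxb13 lists. The strength of the peaks over local background, the authors' fold enrichment, had medians of 4.70 and 4.78 for Meis1 and of 3.28 and 3.46 for Hoxb13, and folds were used only to rank peaks within their own list.

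**Figure D1:**
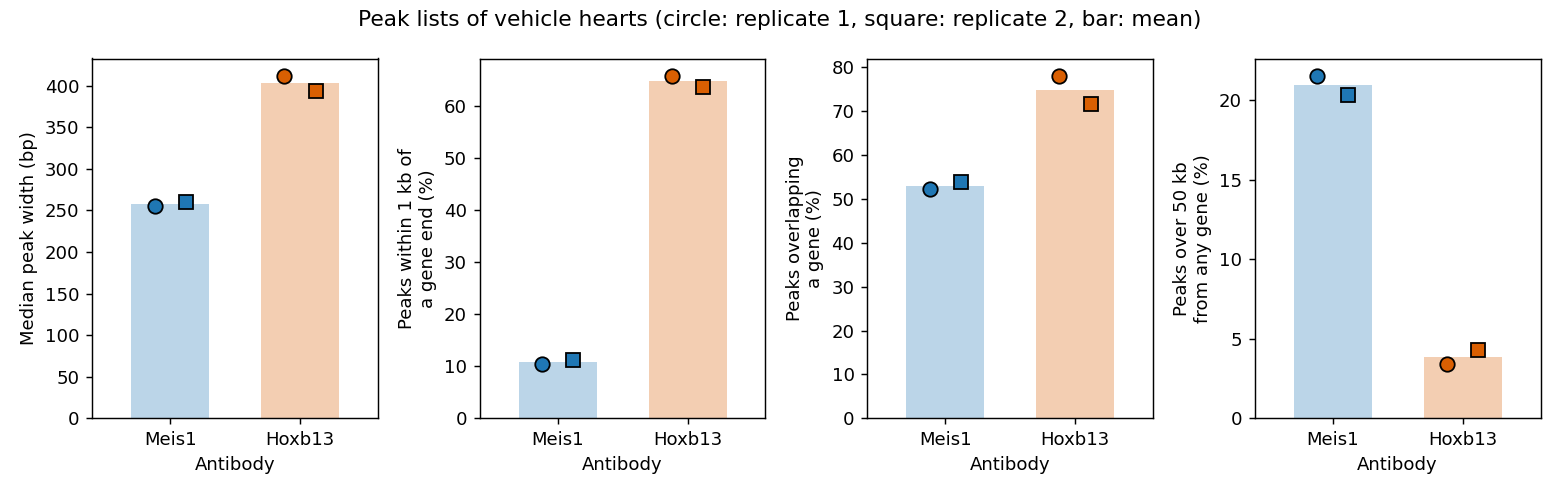
Median peak width in bp and the percentage of peaks within 1 kb of a gene end, overlapping a gene and over 50 kb from any gene, for each vehicle library (circle, replicate 1; square, replicate 2; bar, mean of 2). The 2 libraries of an antibody sit together in every panel, and the antibodies do not overlap.

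The groups did not overlap in width, in distance to genes or in the share inside genes. Median width was 403 ± 12.7 bp for Hoxb13 and 257.5 ± 3.54 bp for Meis1 (SD, n = 2 each). The gene-end share was 64.8 ± 1.51% against 10.9 ± 0.515%, a difference of 54.0 percentage points. The share of peaks overlapping a gene was 74.9 ± 4.60% against 53.1 ± 1.25%, and the share over 50 kb away was 3.84 ± 0.622% against 20.95 ± 0.866%. With 2 libraries against 2, the exact two-sided permutation test over 6 assignments cannot give a p under 0.333, which is the value all 4 of these measures reached (0.417 after Benjamini-Hochberg adjustment over 5 tests). These differences are larger than the spread between replicates, and the design is too small for a p under 0.05. Peak number overlapped between the antibodies, with a log2 difference of -0.47 (exact permutation p = 1), which turned to 0.64 without Hoxb13 replicate 2 and to 0.34 with the second Meis1 lists exchanged.

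Few regions were shared. The 2 Meis1 lists merged into 4672 regions, and 2033 had a peak in both lists, which is 57.6% of those with a peak in replicate 1 and 64.0% of those with a peak in replicate 2. The Hoxb13 lists merged into 5335 regions, and 946 had a peak in both, which is 18.2% of those of replicate 1 and 87.4% of those of replicate 2. The shorter second list sets how many Hoxb13 regions can be counted. Overlap between the antibodies was taken between merged regions, so the peaks of a single list need not touch those of the other antibody. The 51 overlaps are 2.51% of the Meis1 regions (exact 95% interval 1.87 to 3.29) and 5.39% of the Hoxb13 regions (4.04 to 7.03); such intervals cover counting error over regions only. With the second Meis1 lists exchanged, Meis1 held 797 regions alone and shared 30. Without Hoxb13 replicate 2, so that the first list alone defined Hoxb13 regions, 164 regions were shared and 5038 were held by Hoxb13 only. Without Meis1 replicate 1 or replicate 2, Meis1 held 3099 or 3450 regions alone and shared 77 or 79.

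A region held by one antibody only may still carry a peak in 1 list of the other. Of the 1982 Meis1-only regions, 113 (5.70%) had a peak in Hoxb13 replicate 1. These 113 lay within 1 kb of a gene end in 45.1% of cases, against 7.01% of the other 1869. Of the 895 Hoxb13-only regions, 28 had a peak in Meis1 replicate 1 and 26 in replicate 2.

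Width and place separated the classes further. Meis1-only regions had a median width of 313 bp and none of the 1982 reached 3 kb (exact 95% interval up to 0.186%). Hoxb13-only regions had a median width of 788 bp, 37.0% were at least 1 kb wide and 67 were at least 3 kb wide. Shared regions had the same median width as Hoxb13-only regions, 788 bp, and 39.2% reached 1 kb. When 1 Hoxb13 list alone defined regions, with no merging and no second peak required, the Hoxb13-only median was 393.5 bp (replicate 2) or 411 bp (replicate 1), and with 1 Meis1 list alone the Meis1-only median was 259 or 255 bp. In 28 of the 51 shared pairs the whole Meis1 region lay inside the Hoxb13 region, and the reverse held in 2. The Meis1 part of a shared region had a median width of 420 bp and the Hoxb13 part one of 752 bp.

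Hoxb13-only and shared regions lay at gene ends, and Meis1-only regions away from them. Within 1 kb of a gene end lay 9.18% of Meis1-only regions (7.95 to 10.5), 72.4% of Hoxb13-only regions (69.3 to 75.3) and 64.7% of shared regions (50.1 to 77.6). The median distance to the nearest gene end was 26979 bp for Meis1 only and 0 bp for the other classes. Meis1-only regions were found inside genes but over 5 kb from an end in 41.1% of cases, against 11.6% for Hoxb13 only and 3.92% for both. Outside all genes by more than 5 kb lay 39.7%, 4.80% and 13.7%, in the same order. Over 100 kb from any gene were 284 Meis1-only, 11 Hoxb13-only and 5 shared regions. These 5 shared regions, which are part of the 13.7%, ranked very low by fold in all 4 lists, as given below.

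Gene ends cover starts and far ends. RefSeq starts were listed for 17491 of the 21883 protein-coding genes, and chromosome 18 was not used for them. A listed start lay under 3.93% of Meis1-only regions, 47.7% of Hoxb13-only regions and 56.9% of shared regions. The far end, with no start within 1 kb, was touched or approached within 1 kb by 1.47%, 10.8% and 1.96%.

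The gap in place between the antibodies was present among regions of like width. Between 300 and 500 bp, 9.25% of 832 Meis1-only regions and 77.8% of 171 Hoxb13-only regions lay within 1 kb of a gene end. Between 500 and 1000 bp the shares were 6.95% of 259 and 78.9% of 342. Between 1 and 3 kb they were 10.5% of 38 and 69.7% of 264.

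**Figure D2:**
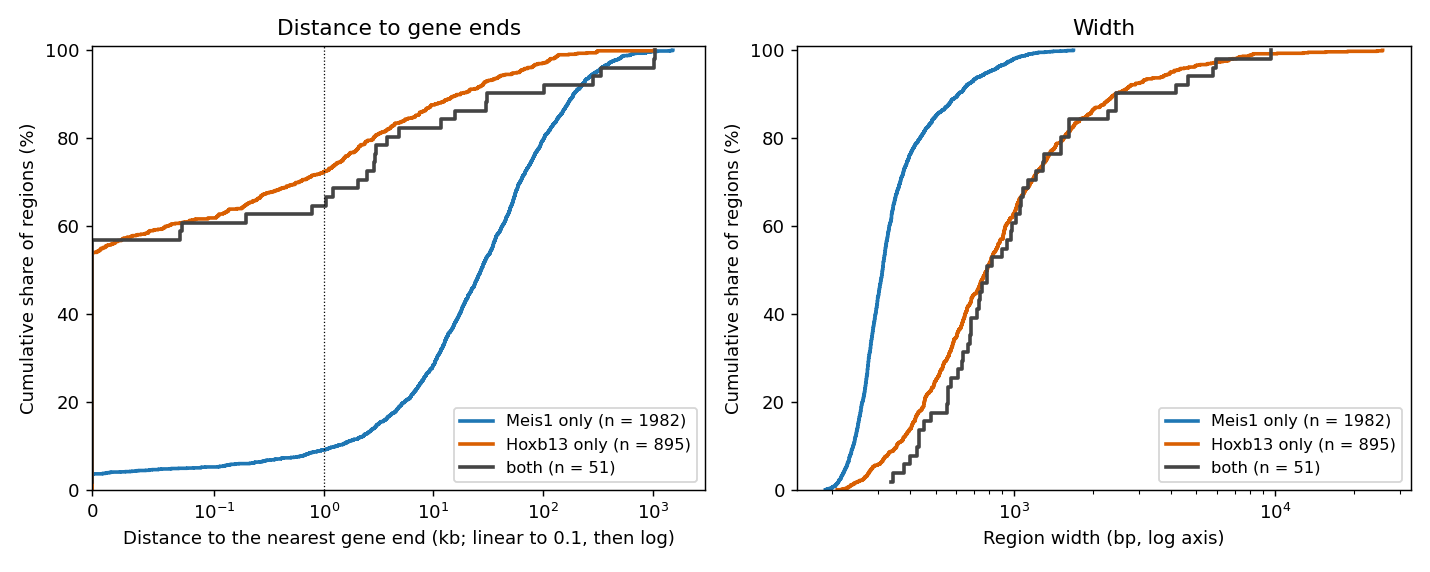
Cumulative share of regions by distance to the nearest end of a protein-coding gene (kb, linear to 0.1 and log beyond) and by region width (bp, log axis), for regions held by Meis1 only (1982), Hoxb13 only (895) and both (51). The Hoxb13-only and shared curves run together, while the Meis1-only curve lies at larger distances up to the far tail and at smaller widths.

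The highest-ranked shared region by fold percentile, the rank of a peak within its own list, spanned Dusp1 (chr17:26502932-26508885, 5954 bp). Its Meis1 folds were 8.74 and 8.36 and its Hoxb13 folds 4.74 and 4.498. The merged Hoxb13 region covered the whole Dusp1 gene, although the peaks of replicate 2 left a gap within it. The Meis1 region of 1221 bp lay 1409 bp outside the gene, 4290 bp from the listed start. The second was Ldb3, which encodes a Z-disc protein (chr14:34564963-34574576), with Meis1 folds of 6.27 and 8.13 and Hoxb13 folds of 5.94 and 5.37. There the Meis1 region of 488 bp lay at one edge of a Hoxb13 region of 9470 bp inside the gene. Only the Hoxb13 peak of replicate 1 overlapped the Meis1 peaks, since that of replicate 2 ended short of them. The third was Mb, the gene of the oxygen-storing protein myoglobin (chr15:77013563-77016010), with Meis1 folds of 7.01 and 7.40 and Hoxb13 folds of 6.25 and 3.95.

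Further shared regions of high rank lay at Bcl2l2 and Pabpn1, Prr11 and Ska2, Ephb4, Map3k3, Tle2 and Tle5, Plekhf1 and Tcf7l2. Ephb4 encodes a receptor of venous endothelium, Tcf7l2 a transcription factor of the Wnt pathway, and Tle2 and Tle5 belong to the Groucho corepressor family. Those at Bcl2l2 and Pabpn1, Prr11 and Ska2, Ephb4, Map3k3 and Tcf7l2 lay on a listed start, and the one at Tle2 lay 2937 bp outside the nearest gene. Rhob, an early-response small GTPase, held one of the widest shared regions (4623 bp). Of the 51 shared regions, 6 lay below the fifth fold percentile in all 4 lists, with none above 2.77. They were at a copy of the ribosomal RNA sequence on chromosome 17 (5803 bp), at 4 places from 281797 to 1034583 bp from any protein-coding gene on chromosomes 2, 3 and 9, and in Cdk8. Without them, 45 shared regions remained.

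Meis1 and Hoxb13 regions were found at nearly equal numbers of genes, and mostly at different ones. A gene was counted when a region lay in it or within 5 kb. Meis1 regions lay at 1171 of 21883 protein-coding genes (5.35%) and Hoxb13 regions at 1179 (5.39%). Genes with Meis1 regions only numbered 1013 (4.63%), genes with Hoxb13 regions only 1021 (4.67%) and genes with both 158 (0.722%). Hoxb13 regions were thus at 13.5% of the Meis1 genes, against 5.39% of all genes. Meis1 regions were at 13.4% of the Hoxb13 genes, against 5.35% of all genes. At 59 of the 158 genes the regions overlapped. At the other 99 they were separate, with a median gap of 16063 bp, 61 of them over 10 kb apart. Without Hoxb13 replicate 2, genes with Hoxb13 only numbered 4785, those with both 518 and those with Meis1 only 653. Without Meis1 replicate 1 or replicate 2, genes with Meis1 only numbered 1574 or 1633, and without replicate 2 those with both numbered 246. With the second Meis1 lists exchanged, Meis1 alone was at 443 genes and both at 76.

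The genes differed in size. Median length was 72495 bp for genes with Meis1 regions only, 17290 bp for Hoxb13 only and 34086 bp for both, against 17170 bp for all protein-coding genes. The share of genes with a Meis1 region was 1.19% below 5 kb and 19.3% at 100 kb or more. For Hoxb13 it was 3.97% and 5.23% in the same bands, and 6.03% between 5 and 20 kb. Long genes thus held Meis1 regions more often, so the median gene length is given with several lists below. Shares of list genes are to be read against the 5.35% (Meis1) and 5.39% (Hoxb13) of all protein-coding genes. Hoxb13 regions covered at least 50% of the gene body at 35 genes, 8 of them whole, and Meis1 regions at 1 gene. Coverage here and below is by merged regions, so the peaks of 1 list can cover less.

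Contractile genes held regions of both antibodies. Of 34 sarcomere genes (median length 22346.5 bp), 11 held Meis1 and 17 held Hoxb13 regions, or 32.4% and 50%, against 5.35% and 5.39% of all genes. Regions of both were found at 8: Myh6, Myh7, Myl2, Ttn, Tnnt2, Actn2, Ldb3 and Csrp3. At 4 of these the regions overlapped. The Meis1 count was 2 with the second lists exchanged and 3 when each list was trimmed to the 1121 peaks of highest fold, and the Hoxb13 count was 23 without replicate 2.

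At the myosin heavy chain pair the contrast of shapes was plain. Hoxb13 regions of 24634 bp (chr14:54936452-54961085) and 13387 bp (chr14:54985986-54999372) covered most of Myh6 and much of Myh7, with folds of 6.35 and 5.43 at Myh6 and of 5.27 and 4.79 at Myh7. Over all regions, Hoxb13 covered 89.4% of Myh6 and 55.9% of Myh7. Meis1 held a single region of 254 bp there (chr14:54966724-54966977), 117 bp from the Myh6 start whose sequence is printed above, with folds of 5.06 and 4.64. The Meis1 region is counted for Myh7, 3707 bp away, as well. Of the Hoxb13 lists, only that of replicate 1 had a peak over it. Titin likewise held 34 Hoxb13 regions, among them the widest of all (25845 bp, chr2:76877955-76903799, folds of 4.69 and 4.26), and 1 Meis1 region of 1133 bp on its listed start, with folds of 4.94 and 3.76.

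**Figure D3:**
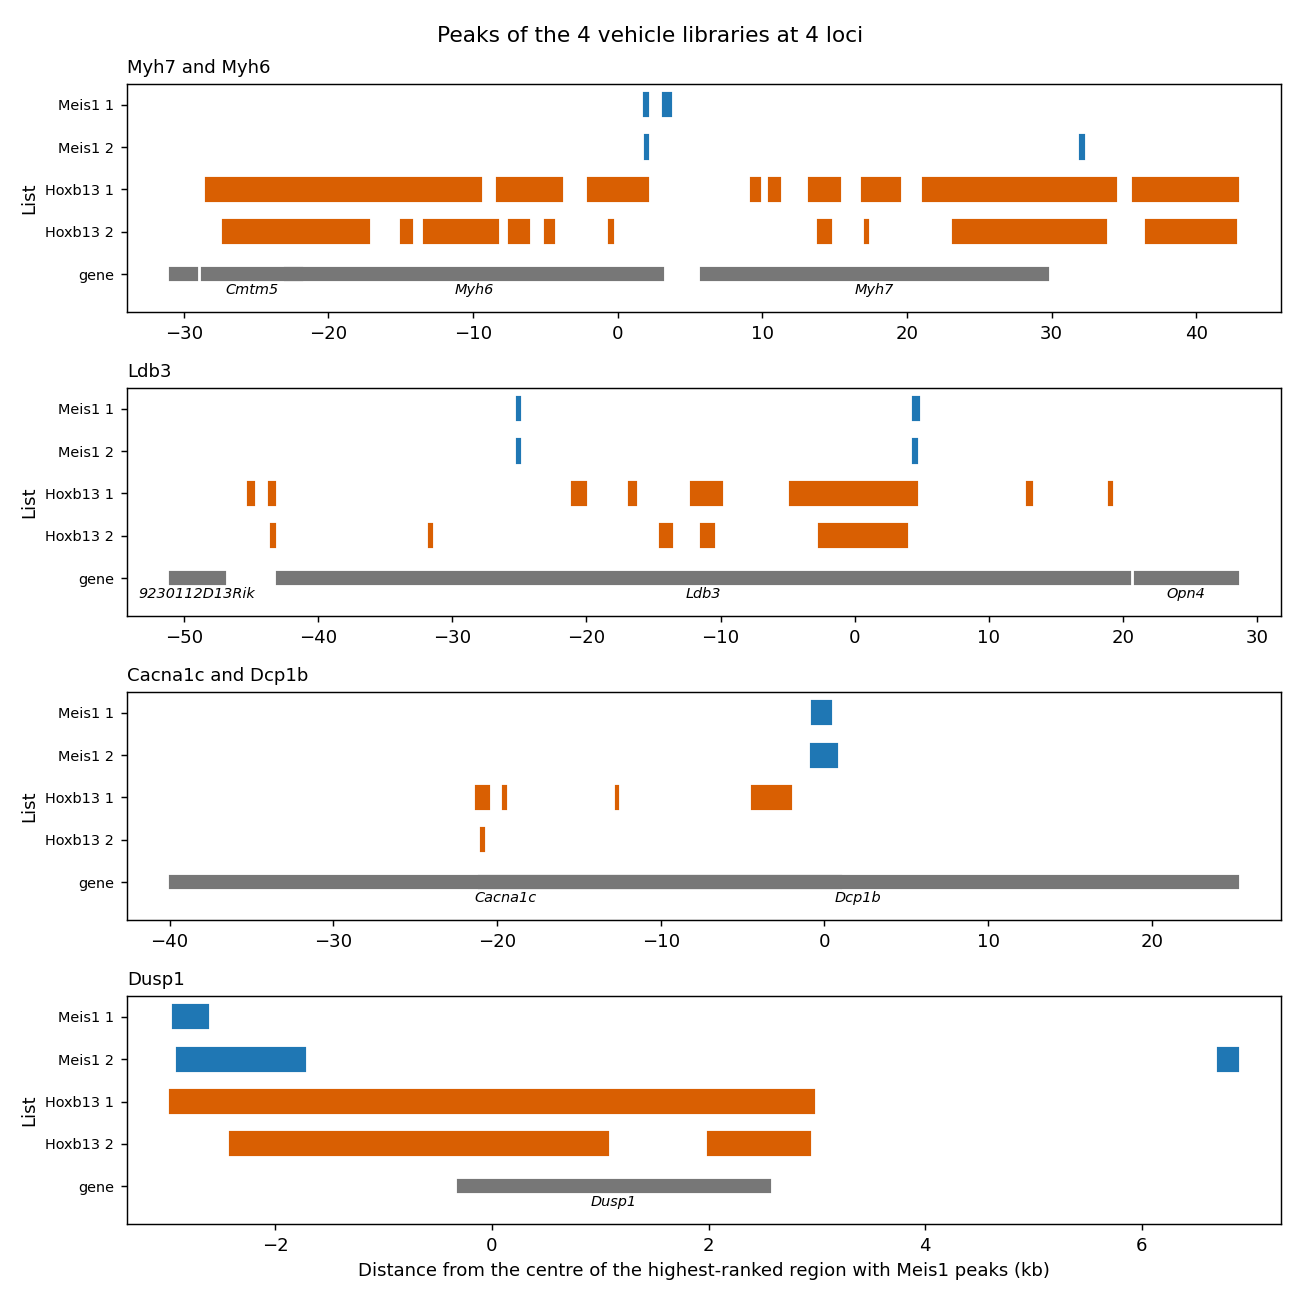
Peaks of the 4 vehicle lists at Myh7 and Myh6, Ldb3, Cacna1c and Dcp1b, and Dusp1, by distance in kb from the centre of the highest-ranked region with Meis1 peaks (grey bars, genes). At Myh6, Myh7, Ldb3 and Dusp1 the widest Hoxb13 peaks cover longer stretches than any Meis1 peak, while at Cacna1c and Dcp1b the Meis1 peaks are wider than most Hoxb13 peaks.

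Myl2, the gene of the ventricular regulatory light chain, held the second strongest Meis1-only region (chr5:122094249-122094864, 616 bp), with folds of 18.04 and 19.57 in the 2 Meis1 lists. The Hoxb13 region of that gene lay elsewhere, 13185 bp from the listed start (chr5:122106374-122113705, 7332 bp), with folds of 6.25 and 5.12. The same separation was seen at Csrp3, a LIM protein of the Z-disc, where the Meis1 region lay 2805 bp and the Hoxb13 region 12929 bp from the start. Tnnt2, which encodes cardiac troponin T, held 3 Meis1 regions inside the gene and 1 Hoxb13 region 2302 bp outside it. At Actn2, the gene of sarcomeric alpha-actinin, both antibodies met on one site 2501 bp from the start, with Meis1 folds of 8.19 and 5.27 and Hoxb13 folds of 3.52 and 3.22.

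Contractile genes with Hoxb13 regions only included Actc1, Mybpc3 (myosin-binding protein C), Lmod2 (leiomodin), Myl3 (essential light chain) and Tnni3 (cardiac troponin I). At Actc1 the Hoxb13 folds were 6.96 and 6.75 and the region covered 99.8% of the gene, and no Meis1 library had a peak. At Mybpc3 and Myl3 the regions lay past the gene, 273 and 1682 bp outside it and 18645 and 7806 bp from the listed start. Meis1 regions only were held by Nebl, Lmod3 and Synpo2l, which encode thin-filament and Z-disc proteins.

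Genes of ion channels and cell junctions leaned to Meis1. Of 26 pacemaker, sodium and potassium channel genes (median length 38664 bp), 12 (46.2%) held Meis1 and 3 (11.5%) held Hoxb13 regions. Among all protein-coding genes the shares were 5.35% and 5.39%. Of 19 intercalated disc and gap junction genes (median 59368 bp), 8 (42.1%) held Meis1 and 2 (10.5%) held Hoxb13 regions. Of 25 calcium handling genes (median 66010 bp), 9 (36%) held Meis1 and 7 (28%) held Hoxb13 regions, 3 of them both. The channel and disc genes are longer than the median gene, and long genes held more Meis1 regions overall. With the second Meis1 lists exchanged the 3 Meis1 counts were 9, 5 and 6. Without Hoxb13 replicate 2 the 3 Hoxb13 counts were 12, 10 and 12, and without Meis1 replicate 2 the Meis1 calcium count was 15.

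**Figure D4:**
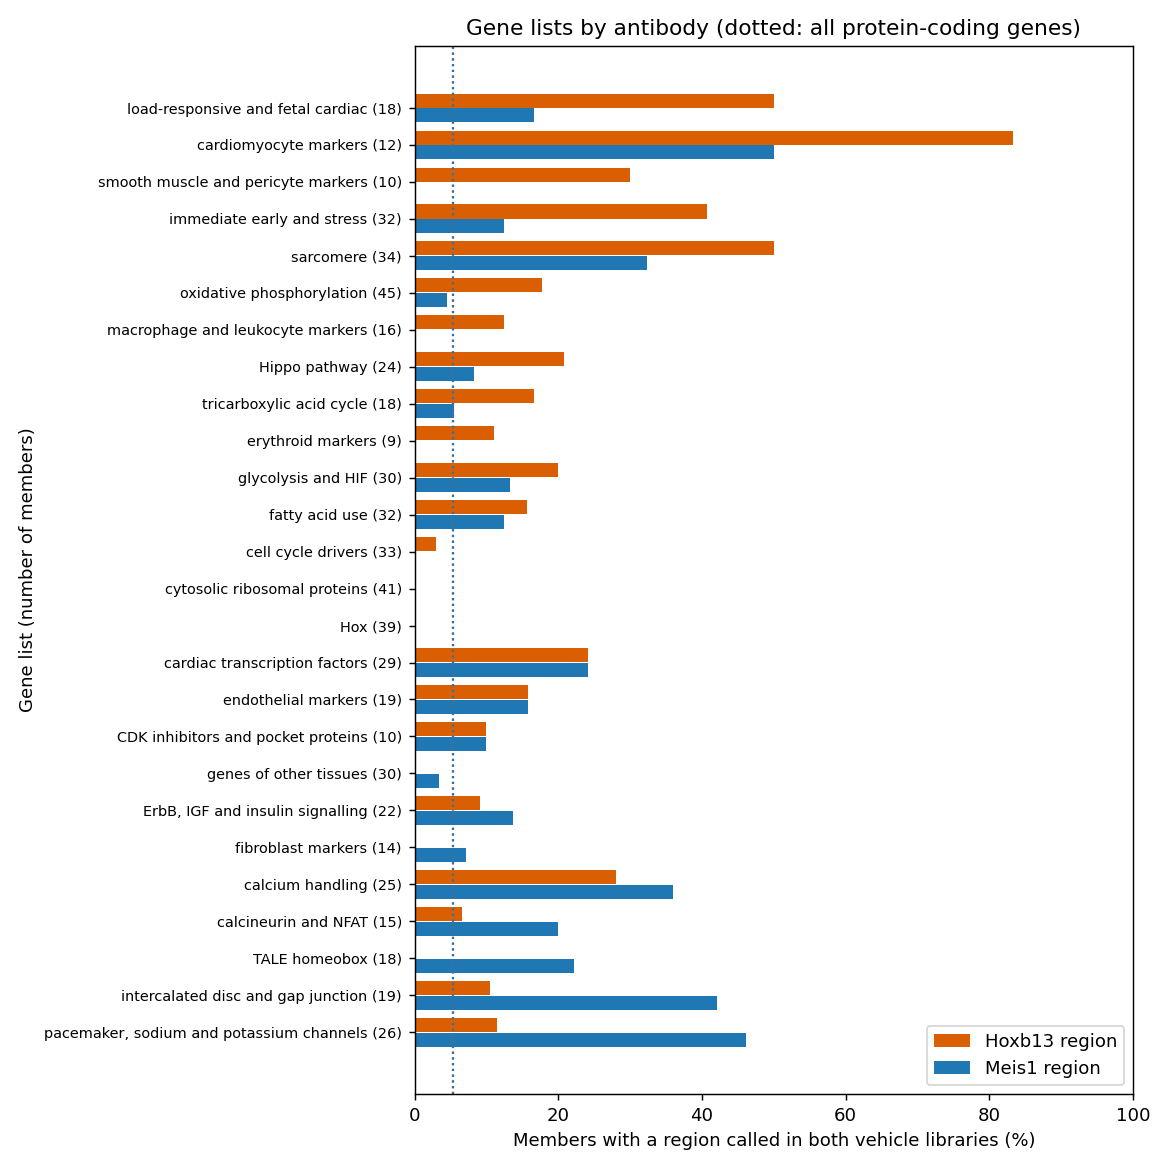
Percentage of the genes of each list with a Meis1 region and with a Hoxb13 region called in both vehicle libraries, counting regions in the gene or within 5 kb. Dotted lines mark the shares of all protein-coding genes, 5.35% and 5.39%. Channel and junction lists lie higher for Meis1, and sarcomere and immediate early lists higher for Hoxb13.

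Among channel genes, Abcc9, the regulatory subunit of an ATP-sensitive potassium channel, held a Meis1 region of 322 bp with folds of 11.7 and 12.9. The pacemaker channel gene Hcn4 held a Meis1 region with folds of 9.16 and 9.0, which lay 4870 bp outside the gene on the side of the listed start. Abcc8, Kcnj5 and Kcnh2 also held Meis1 regions only, with fold percentiles from 88.6 to 90.6. Hoxb13 regions only were at Hcn2 and Kcnj8, and Kcnn2 held both.

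At the intercalated disc, the structure that joins cardiomyocytes end to end, Meis1 regions only were held by Cdh2 (N-cadherin), Nrap, Gjd3, Pkp2 (plakophilin) and Dsp (desmoplakin) among others. Cdh2 had Meis1 folds of 8.61 and 11.9 and Nrap folds of 12.5 and 7.43. The main ventricular gap junction gene, Gja1, stood on the other side, with a Hoxb13 region of 6649 bp at folds of 6.61 and 6.29 (chr10:56386720-56393368). Jup, which encodes plakoglobin, held both, in separate regions.

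Among calcium genes, the L-type channel genes Cacna1c and Cacnb2 held Meis1 regions at or next to their listed starts. The Cacna1c region of 1597 bp (chr6:119195564-119197160, folds of 7.84 and 7.78) was the second widest of the Meis1-only class. The gene held a Hoxb13 region 20528 bp from the start, which lay over an end of Dcp1b, a gene that overlaps Cacna1c. Cacnb2 had 4 Meis1 regions, the highest-ranked 26 bp from the start (chr2:14823017-14824066, folds of 8.21 and 8.36). Cacna1g, a T-type channel gene, had Meis1 folds of 11.03 and 10.41. Hoxb13 regions only were found at Pln, Atp2a2, Trdn and Casq2, which encode proteins of the sarcoplasmic reticulum, the internal calcium store. Ryr2 and Jph2, which serve the same store, held both antibodies, as did Cacna1c.

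Pln, the gene of the calcium pump inhibitor phospholamban, had Hoxb13 folds of 9.02 and 6.48 and a region of 4922 bp (chr10:53342829-53347750), and a Meis1 peak in replicate 1 only, at a fold of 3.69. Atp2a2, the pump itself, held 4 Hoxb13 regions, the highest-ranked 7124 bp wide with folds of 6.10 and 6.07. Ryr2, the release channel, held a Meis1 region 2324 bp from the start (folds of 6.89 and 5.20) and 3 Hoxb13 regions, the highest-ranked 4049 bp outside the gene.

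Early-response genes leaned to Hoxb13. Of 32 immediate early and stress genes (median length 4385 bp), 13 (40.6%) held Hoxb13 and 4 (12.5%) held Meis1 regions. The shares of all genes were 5.39% and 5.35%. Those with Hoxb13 included Egr1, Jun, Klf2, Btg2 and Per1, most of them switched on soon after a stimulus. The Jun and Klf2 regions covered the whole gene, with folds of 4.25 and 4.15 at Jun and of 4.55 and 3.84 at Klf2. Meis1 regions only were held by Klf15 and Nr4a3, and Dusp1 and Hspb7 held both. Fos, Atf3 and Ier2 held no region of either antibody. The Hoxb13 count was 27 without Hoxb13 replicate 2, and without Meis1 replicate 1 the Meis1 count was 8.

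Of 18 load-responsive and fetal cardiac genes (median 9066 bp), 9 (50%) held Hoxb13 regions and 3 (16.7%) held Meis1 regions. The shares of all genes were 5.39% and 5.35%. Fhl2, a LIM protein of muscle, held 8 Hoxb13 regions over 59.6% of the gene, with folds of 6.73 and 5.74 at the highest-ranked. Nmrk2, a kinase of NAD synthesis in muscle, had Hoxb13 over 92.3% of its body. The natriuretic peptide genes Nppa and Nppb held no region of either antibody. The Meis1 count was 6 without Meis1 replicate 1, 5 without replicate 2 and 0 with the second lists exchanged.

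The TALE family to which Meis1 belongs was held by Meis1 alone, at 4 of 18 genes, among them Meis1, Meis2 and Pknox1. That is 22.2%, against 5.35% of all genes. The region at Meis1 lay inside the gene, 215 bp from a listed start, with folds of 7.79 and 4.86. That at Meis2 lay 584 bp from a start, with folds of 3.83 and 4.94 at the region and no Hoxb13 peak in either list. Without Meis1 replicate 2 the Meis1 count of this list was 7, and without Hoxb13 replicate 2 the Hoxb13 count was 5. No region of either antibody lay at any of the 39 Hox genes, and at Hoxb13 itself there was 1 peak, in Meis1 replicate 2 alone. Hox genes are short (median 3737 bp), and few genes below 5 kb held regions, 1.19% for Meis1 and 3.97% for Hoxb13. Whether Hox genes differ in this from other short genes was not tested.

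Of 29 cardiac transcription factor genes, 7 held Meis1 and 7 held Hoxb13 regions (24.1% each, against 5.35% and 5.39% of all genes). The Hoxb13 count was 16 without Hoxb13 replicate 2, and the Meis1 count was 12 without Meis1 replicate 1. Prdm16, Myocd, Ppargc1a, Gata4 and Mrtfa held Meis1 only, with folds of 10.80 and 13.01 at Prdm16. Hand2, Tbx2, Tbx20, Esrra and Ankrd1 held Hoxb13 only, and at Hand2 the regions covered 98.7% of the gene. Mef2a held both at its start, where the Meis1 folds were 6.2 and 5.6 and the Hoxb13 folds 3.25 and 2.99. Nfia held both far apart, with the Hoxb13 region 193111 bp from the listed start and the highest-ranked Meis1 region 20695 bp from it.

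Energy genes were examined in 4 lists. Of 45 oxidative phosphorylation genes (median 7079 bp), 8 (17.8%) held Hoxb13 and 2 (4.44%) held Meis1 regions, against 5.39% and 5.35% of all genes. Meis1 held Cox7a1, whose hexamer is printed above, and Atp5e, and the Hoxb13 genes included Atp5b, Atp5g1, Atp5a1, Cox6a2 and Ndufs8. Of 18 tricarboxylic acid cycle genes, 3 (16.7%) held Hoxb13, among them Cs and Ogdh, and 1 (5.56%) held Meis1 (Idh2). The Meis1 shares of these 2 lists were near that of all genes. Of 30 glycolysis and HIF genes, 6 (20%) held Hoxb13 and 4 (13.3%) held Meis1, and Pkm held both. Of 32 fatty acid use genes, 5 (15.6%) held Hoxb13 (Fabp3, Pdk4, Plin5, Eci1 and Acsl1) and 4 (12.5%) held Meis1 (Ppargc1a, Lpl, Ppara and Cd36). Without Hoxb13 replicate 2 the Hoxb13 counts of the last 3 lists were 8, 16 and 18. The Meis1 count of fatty acid genes was 7 without Meis1 replicate 1 and 0 with the second lists exchanged. The Meis1 counts of oxidative phosphorylation and of glycolysis and HIF genes were 5 and 8 without Meis1 replicate 2.

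The Hoxb13 regions of several energy genes lay beyond the gene, away from the start. The region at Gapdh lay 52 bp outside the gene and 3973 bp from the listed start, with folds of 5.34 and 4.13. That at Ldha lay 262 bp outside and 8807 bp from the start, with folds of 3.68 and 3.57. Without Hoxb13 replicate 2 the oxidative phosphorylation count was 28 of 45, and 25 of 41 cytosolic ribosomal protein genes held a Hoxb13 region, against 0 when both lists were required. For Meis1 the ribosomal count was 0. With replicate 2 as the only Hoxb13 list these counts were 8 and 0, so the higher ones came from the longer list of replicate 1.

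Cell cycle genes were examined in 2 lists. Of 10 CDK inhibitor and pocket protein genes, Cdkn1b held a Meis1 region on its listed start (chr6:134920310-134920542, folds of 4.84 and 5.65) and Cdkn2d a Hoxb13 region on its own (chr9:21291156-21291557, folds of 4.72 and 4.86), so that each antibody held 10% of this short list. Both genes encode inhibitors of cyclin-dependent kinases. Among all genes, 5.35% held Meis1 and 5.39% held Hoxb13 regions. Cdkn1b also had 2 peaks in Hoxb13 replicate 1 and 0 in replicate 2. Cdkn1a, Cdkn2a and Cdkn2b had 0 peaks in all 4 vehicle lists. Of 33 cell cycle drivers, 0 held Meis1 and 1 held Hoxb13 (Cdk2, 1205 bp outside the gene), or 3.03% against 5.39% of all genes. The Hoxb13 counts were 4 inhibitor and 9 driver genes without Hoxb13 replicate 2.

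Signalling genes were examined in 3 lists, in which 0 genes held both antibodies, against 0.722% of all genes. Of 15 calcineurin and NFAT genes, Ppp3ca, the calcineurin catalytic subunit, and its regulators Rcan1 and Rcan2 held Meis1, and Nfatc3 held Hoxb13. These are 20% and 6.67% of the list, against 5.35% and 5.39% of all genes. Rcan1 had Meis1 folds of 7.04 and 6.06, 125 bp from the start, and 0 Hoxb13 peaks. Ppp3cb, another catalytic subunit of calcineurin, had 0 peaks in all 4 lists. With the second Meis1 lists exchanged, the Meis1 count of this list was 0. Of 24 Hippo pathway genes, 5 (20.8%) held Hoxb13 (Tead3, Stk4, Nf2, Amotl2 and Ankrd1) and 2 (8.33%) held Meis1 (Stk3 and Ccn2). Of 22 ErbB, IGF and insulin genes, 3 (13.6%) held Meis1 (Insr, Foxo3 and Egfr) and 2 (9.09%) held Hoxb13 (Irs2 and Igf1r). The Hoxb13 counts of the 3 lists were 3, 18 and 10 without Hoxb13 replicate 2. Without Meis1 replicate 1 the Meis1 counts of the Hippo and ErbB lists were 6 and 5, and without replicate 2 they were 6 and 8.

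Markers of cardiomyocytes carried more regions than markers of other cells. Of 12 cardiomyocyte markers, several of which are also sarcomere or calcium genes, 10 (83.3%) held Hoxb13 and 6 (50%) held Meis1. The 6 with Meis1 held both. Of 19 endothelial markers, 3 held Meis1 (Pecam1, Tek and Ets1) and 3 held Hoxb13 (Fabp4, Egfl7 and Sox18), 15.8% each. Of 14 fibroblast markers, Gsn held Meis1. Smooth muscle and pericyte markers held Hoxb13 at 3 of 10 (30%) and macrophage and leukocyte markers at 2 of 16 (12.5%), Cd68 and Cd3e. Erythroid markers held Hoxb13 at 1 of 9 (11.1%) and genes of other tissues held Meis1 at 1 of 30, Mbp. The Meis1 shares of fibroblast markers (7.14%) and of genes of other tissues (3.33%) were near the 5.35% of all genes. For Hoxb13 the share of all genes was 5.39%. Endothelial markers held Hoxb13 at 10 of 19 and fibroblast markers at 3 of 14 without Hoxb13 replicate 2. The part of each cell type in these regions was not tested.

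The Meis hexamer marked starts held by Meis1. RefSeq windows of 300 bp, from 250 bp before to 50 bp after a start, were searched on both strands. TGACAG, with its reverse complement CTGTCA, occurred in 19.2% of all 32851 windows. It occurred in 56.6% of the 159 windows under Meis1-only regions (exact 95% interval 48.5 to 64.4) and in 14.6% of the 712 under Hoxb13-only regions (12.1 to 17.4). Of the 44 windows under shared regions, 43.2% held it (28.3 to 59.0). The intervals of the Meis1-only and shared classes lie above the share of all windows, and that of Hoxb13 only lies below it. Base composition, which differs between the classes, is taken up below. The 159 and 712 windows belong to 148 and 615 genes, so they are not all independent.

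The hexamers lay under Meis1-only regions rather than beside them. Within windows touched by Meis1-only regions there were 3.16 sites per kb under the region (102 sites) and 0.712 per kb outside it (11 sites), and all windows held 0.726 per kb. For Hoxb13 only the densities were 0.594 and 0.422 per kb, both below that of all windows. For shared regions, taken as unions, they were 1.57 and 0.919, the latter from 1 site. Windows of the classes differ in base composition, with a median GC content of 57.3% for Meis1 only, 66.3% for Hoxb13 only and 52.7% for all. Within 55 to 65% GC, TGACAG occurred in 52.4% of Meis1-only, 18.6% of Hoxb13-only and 18.8% of all windows. At 65% GC or more it occurred in 58.3%, 11.7% and 12.2%. Between 45 and 55% GC it occurred in 68%, 17.9% and 23.1%. Below 45% GC, with 10 Meis1-only and 7 Hoxb13-only windows, it occurred in 20%, 14.3% and 19.4%. The Meis1-only share was thus above that of all windows in the 3 upper bands, and near it in the thinly filled lowest band. The Hoxb13-only share was near that of all windows from 55% GC up, where 236 and 402 of its 712 windows lay. It was below that of all windows under 55% GC.

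**Figure D5:**
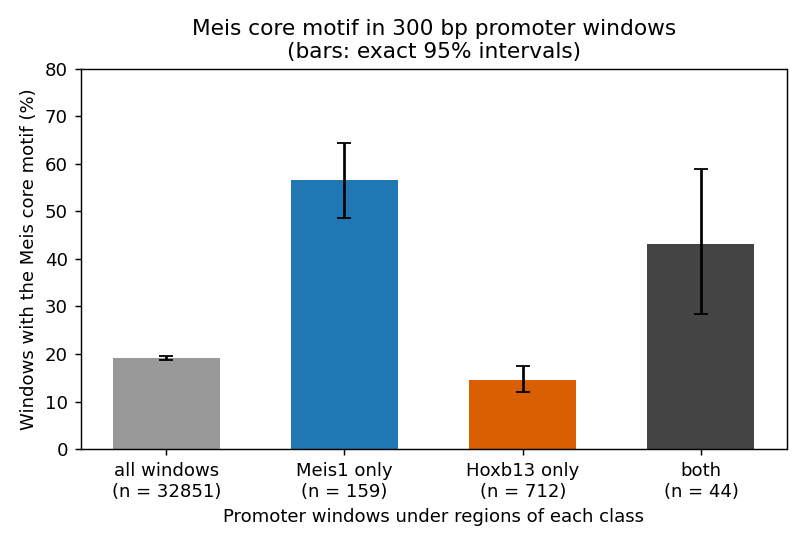
Percentage of 300 bp promoter windows with the Meis core hexamer on either strand, for all windows and for windows under regions of each class (error bars, exact 95% intervals). The Meis1-only bar is at 56.6% and the shared bar at 43.2%, both above the 19.2% of all windows.

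The Hoxb13 letters searched were present in few windows of any class. CAATAAA occurred in 4.6% of all windows, 3.65% of Hoxb13-only, 2.52% of Meis1-only and 0% of shared windows. TCGTAAA occurred in 0.597% of all windows, 1.12% of Hoxb13-only windows (8 windows) and 0.629% of Meis1-only windows (1 window). A longer form that contains TGACAG was added after the shares of the hexamer were seen. TGACAGNT occurred in 5.02% of all, 18.9% of Meis1-only, 3.65% of Hoxb13-only and 18.2% of shared windows. No such count was made away from starts, where most Meis1 regions lay.

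Of the 10 strongest Meis1-only regions, 4 lay over 20 kb from any gene. Bpifb1 held the first (chr2:154206801-154207195, folds of 20.0 and 19.9), inside the gene. The third lay 24731 bp from Bcl2l11, which encodes the cell-death protein Bim, with folds of 15.8 and 22.4. Others of the top 10 lay 80534 bp from Lbh, 138101 bp from Kcnj2, the gene of an inward-rectifier potassium channel, and 519634 bp from Adgrl2. Gse1 and Dot1l, a histone methyltransferase gene, held theirs inside the gene. The widest Meis1-only region (1689 bp) lay at Peg3 and Usp29, an imprinted pair. The farthest lay 1521053 bp from Pcdh7.

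The strongest Hoxb13-only regions lay at starts, inside genes and between them. The first lay on the start of Stx16 (chr2:174075855-174076484, 630 bp), with folds of 14.8 and 14.5. The second lay 108766 bp from Jun (chr4:95160988-95161631), with folds of 12.7 and 12.7. Slc44a1 and Foxj3 followed with regions on the start, and Usp7, Nfia and Tpcn1 with regions inside the gene. The region near Cd3e, 4233 bp outside the gene, was 4286 bp wide, with folds of 11.9 and 9.83. The farthest Hoxb13-only regions, on chromosomes 2 and 9, had fold percentiles of 0.994 to 1.31 and lay near shared regions of very low rank.

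MicroRNA hairpins were touched by few regions. Of 1005 RefSeq hairpins, 2 were touched by Meis1-only, 8 by Hoxb13-only and 0 by shared regions. The 8 included Mir208a, encoded in an intron of Myh6 and expressed with it, under the 24634 bp region, and Mirlet7i, a member of the let-7 family, under a region of 906 bp with folds of 4.33 and 3.72. Their mature forms are shown for the 2 hairpins known from heart muscle and growth control, read 5′ to 3′ with the seed (bases 2 to 8) in capitals.
mmu-miR-208a-3p: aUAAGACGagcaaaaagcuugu
mmu-let-7i-5p: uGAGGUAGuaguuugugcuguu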

How the data were processed

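Peak lists of 4 vehicle libraries were analysed, 1 per library and so not pooled. The submitters' processing notes name FastQC 0.11.5, Bowtie2, Picard 1.127 and MACS2, as well as HOMER and build mm10. Caller options, the control and aligner settings were not given in the sources used here, and the 8 inputs were not analysed here. Each deposited peak has a fold enrichment (a ratio made by the authors' caller), −log10 p and −log10 q values, and a deposited score equal to 10 times −log10 q rounded down in 100% of peaks. Sequencing depth is unknown, so a missing peak carries no detection limit.

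Peaks on chromosomes 1 to 19, X and Y were merged at 1 bp of overlap, and regions with peaks of both replicates of an antibody were classified by overlap with those of the other. Percentiles rank the authors' folds within a list. Genes were the 21883 protein-coding genes of RefSeq GRCm38.p6, whose table gives gene start and end without exons, so exon and intron were not assigned. Of 595 list genes, 591 matched by symbol and 4 by an older symbol. Single values per library were tested by exact permutation, and classes were described by counts with exact Clopper-Pearson 95% intervals. Scripts ran in Python 3.11.15 with numpy 2.4.6, pandas 2.3.3, scipy 1.17.1 and statsmodels 0.14.6, and were tested on simulated peaks.

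The members and the 26 gene lists were chosen with earlier results of these data known, so no list is independent support. Named were the 10 regions of highest mean fold percentile, the 5 widest and the 3 farthest from a gene in each class, list genes with both antibodies, up to 6 list members with 1 antibody, and a set of genes whatever their values (Meis1, Meis2, Hoxb13, Cdkn1a, Cdkn1b, Cdkn2a, Cdkn2b, Ppp3ca, Ppp3cb, Rcan1, Myh6, Myh7, Actc1, Tnnt2, Ryr2 and Pln). Other names were chosen after their values were seen, and a few items under this rule are not reported here. Alternatives were single lists, a −log10 q of at least 2, the exchanged Meis1 lists, lists of 1121 peaks, 50% overlap, one merge of all 4 lists, and other gene windows. A listed-start window and the exclusion of weak shared regions were added after the data were seen.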

Additional observations from a re-analysis of the deposited data

Results flagged for a closer look

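Peaks of a library outside the comparison fell on many Meis1-only regions. In the second Hoxb13 Paro/Neo list, which holds 16963 peaks, 36.6% of the 1982 Meis1-only regions (725) had a peak (exact 95% interval 34.5 to 38.7). The vehicle Hoxb13 lists held a peak in 5.70% and 0% of them, and the first Hoxb13 Paro/Neo list in 0.252%. Reduced to its 1121 strongest peaks, the second Paro/Neo list held 2.98%. The share moved with the length of the list, and the part of list length in it was not tested.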

How the results depend on the processing

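Limits: 2 libraries per antibody, antibody joined to sample set, unknown depth, and a short second Hoxb13 list. Of 216 values of 23 results under the alternatives, 152 stayed close or kept their call, 62 moved and 2 reversed, both for log2 peak number (0.64 without Hoxb13 replicate 2, 0.34 with second Meis1 lists exchanged); the cause was not tested. Of 520 list counts, 413 stayed within 1.5 times and 107 moved. Leaving out or exchanging a list of one antibody cannot change the list counts of the other. Part of the 413 was therefore fixed in advance. The 152 likewise include the values with the replicate number as a block, which could not differ.

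With −log10 q of at least 2, Hoxb13 only held 589 regions and 32 were shared (1.70% of Meis1 regions). With the second Meis1 lists exchanged, Meis1 only held 797 regions (median 320 bp) and 443 genes, 30 regions (3.63% of Meis1, 3.17% of Hoxb13) and 76 genes were shared, and TGACAG lay in 67.8% of Meis1-only windows. With lists of equal length, the classes held 712 Meis1-only (median 336.5 bp), 505 Hoxb13-only and 6 shared regions (0.836% and 1.17%; median 1713 bp), and 403, 643 and 28 genes. TGACAG then lay in 72% of Meis1-only and 19.02% of Hoxb13-only windows, and 75.8% of Hoxb13-only and 83.3% of shared regions lay at gene ends. Counting the gene body alone left 96 genes with both. Within 5 kb of a gene end lay 19.2%, 83.6% and 82.4% of Meis1-only, Hoxb13-only and shared regions, and within 1 kb of a listed start 7.14% and 57.8% of the first 2.

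Leaving out 1 library in turn gave 1869 to 3450 Meis1-only and 867 to 5038 Hoxb13-only regions and 47 to 164 shared ones (2.24 to 8.07% of Meis1, 3.15 to 8.35% of Hoxb13). Genes ranged from 653 to 1633, 933 to 4785 and 167 to 518 for Meis1 only, Hoxb13 only and both. Median widths ranged from 255 to 313, 393.5 to 790 and 557 to 844 bp, and gene-end shares from 7.01 to 10.0%, 63.8 to 72.6% and 51.8 to 65.8%. The log2 peak number ranged from -1.58 to 0.64. TGACAG shares ranged from 51.9 to 55.8%, 13.9 to 15.2% and 31.5 to 49.1%. With 1 list left for an antibody, that list alone defined its regions.

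With the replicate number as a block (sign flips within pairs), the differences are the same by arithmetic, for example 54.0 percentage points at gene ends. This is not a check of them. The exact sign-flip p was 0.5, the smallest possible. The numbers did not pair the samples (r = -0.0448 over 6738 genes).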

Other observations

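Hoxb13-only regions of vehicle hearts were met again in the Hoxb13 Paro/Neo lists at 50.5% in the first and 99.3% in the second. Meis1-only regions were met again in the Meis1 Paro/Neo lists at 51.9% in the first and 37.99% in the second. The Hoxb13 Paro/Neo lists hold 821 and 16963 peaks and the Meis1 ones 1541 and 1025. A list of fewer peaks can meet fewer regions, and the part of list length in these shares was not tested. Of the 51 shared regions, 52.9% had a peak in each Meis1 Paro/Neo list, 60.8% in the first Hoxb13 Paro/Neo list and 100% in the second. Within their own lists, Meis1-only regions had median fold percentiles of 67.9 and 64.9, and shared regions had 47.9 and 45.2 in the same Meis1 lists. Hoxb13-only regions had 80.6 and 52.8, and shared regions had 91.2 and 51.5 in the same Hoxb13 lists. The medians of shared regions include the 6 regions of very low rank.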
